A study of Mus musculus with 6 samples.

Results

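The 10 genes described here handle iron in macrophages, the phagocytes that recover iron from red cells they engulf. They were chosen by function: iron storage (Fth1, Ftl1, Ncoa4), uptake (Tfrc, Steap3, Slc11a1, Slc11a2), export (Slc40a1) and regulation (Ireb2, Aco1). All 10 were found among 56691 gene rows through their Ensembl identifiers, and all 10 passed the low-count filter that left 14856 tested genes. RNA was sequenced from bone marrow-derived macrophages, primary cells grown from mouse marrow, of 3 mice named a, b and c. Cells of each mouse received 2 µM thiothixene, an antipsychotic drug that blocks dopamine receptors, or the solvent DMSO for 24 h from day 6 of culture. This gave 3 thiothixene and 3 DMSO libraries. The labels give no strain, sex or age.

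Cells take up transferrin-bound iron through the transferrin receptor, reduce it in endosomes and move it to the cytosol through divalent metal transporters. Surplus iron is stored in ferritin shells or leaves through ferroportin. The 2 iron regulatory proteins bind iron-responsive elements, short RNA hairpins: at the 5′ end of a transcript they hold back translation, and at the 3′ end they protect the RNA from decay. RNA counts therefore read control of stability, but do not read control of translation. Macrophages are known for heavy ferritin and ferroportin expression, since they recycle iron for the body.

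The hairpins were looked up because they are the known shared control of these genes. The annotated UTRs of all coding transcripts (GENCODE M21, GRCm38) were searched in the transcript sense for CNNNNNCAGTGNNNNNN, in which the 5 bases on each side of the loop must pair, G with T included. Of 21901 coding genes 0.731% held a match, and 4 of the 10 iron handling genes did, with 7 matches. Each line shows the match with its flanks 5′ to 3′, 27 bases in all, and capitals mark the loop.
Fth1, 5′ UTR, chr19:9982733-9982759, plus strand: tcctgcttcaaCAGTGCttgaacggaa
Ftl1, 5′ UTR, chr7:45459780-45459806, minus strand: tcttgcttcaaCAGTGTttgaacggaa
Slc40a1, 5′ UTR, chr1:45925466-45925492, minus strand: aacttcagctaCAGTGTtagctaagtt
Tfrc, 3′ UTR, chr16:32631220-32631246, plus strand: attatcggaagCAGTGCcttccataat
Tfrc, 3′ UTR, chr16:32631599-32631625, plus strand: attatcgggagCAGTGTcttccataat
Tfrc, 3′ UTR, chr16:32631664-32631690, plus strand: tatatcggagaCAGTGAtctccatatg
Tfrc, 3′ UTR, chr16:32631711-32631737, plus strand: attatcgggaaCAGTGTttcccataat
The storage subunits and the exporter held theirs in the 5′ UTR, and the transferrin receptor held 4 in its 3′ UTR. Not every annotated coding transcript held them: 4 of 5 did for Fth1, 1 of 2 for Ftl1 and 1 of 4 for Slc40a1. Each Tfrc match was in 1 of 3. Gene counts do not separate these transcripts. No match with a fully paired stem was found in the annotated UTRs of the other 6 genes, and this rule can miss an element with an unpaired base in its stem. Among the further genes of iron and haem described below, matches included those in the 5′ UTR of Alas2 and the 3′ UTR of Bola3.

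Counts assigned to genes ranged from 10472349, in the DMSO library of mouse b, to 22297520. Agreement within a treatment was uneven. Across genes, log2 CPM (counts scaled to library size) correlated at 0.825 for DMSO of mouse b with DMSO of mouse c, and at 0.981 for the same mice under thiothixene. Reads that did not align made up 4.978% for mouse a under thiothixene and 4.516% for mouse c under DMSO, against 1.85% to 2.31% in the other 4. Macrophage markers were abundant, with a summed level of 9006 to 10504 CPM with thiothixene and 8926 to 17166 CPM with DMSO over 9 genes. One of them, Itgam, held at most 1 count in any library. How reads were counted is not given, so a count of 0 in these files, here and below, need not mean that a transcript was absent. Of 11 erythroid markers 6 had 0 counts in every library, among them Slc4a1 and Hbb-bs, and the list summed to at most 1.34 CPM. Neutrophil markers summed to 338 to 404 CPM with thiothixene and 362 to 860 CPM with DMSO, stromal markers to 54.3 to 286 and 94.9 to 164 CPM. Dendritic and lymphoid lists summed to at most 2.56 and 0.67 CPM. What part other cells had in any value below was not tested.

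In edgeR's quasi-likelihood test 0 of the 10 genes passed a Benjamini-Hochberg adjusted p of 0.05, where 0% of all tested genes passed. None had an unadjusted p under 0.05, a level that 1.72% of tested genes reached. DESeq2 and limma-voom also called 0 of the 10, against 0.00815% and 0% of all genes, and so did limma-voom with library quality weights, against 0.168%. The adjusted p in edgeR was 0.9998 for each of the 10. Log2 fold changes ran from -0.29 for Ftl1 to 0.46 for Ncoa4, 7 above 0 and 3 below. Their median was 0.18, beside -0.04 over all tested genes, of which 45.3% were above 0. The groups did not overlap for 1 gene of 10, Slc11a2, and for 6.65% of all tested genes. That gene was above DMSO in every thiothixene library, as were 3.88% of tested genes, and 0 of the 10 were below, against 2.77%.

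**Figure D1:**
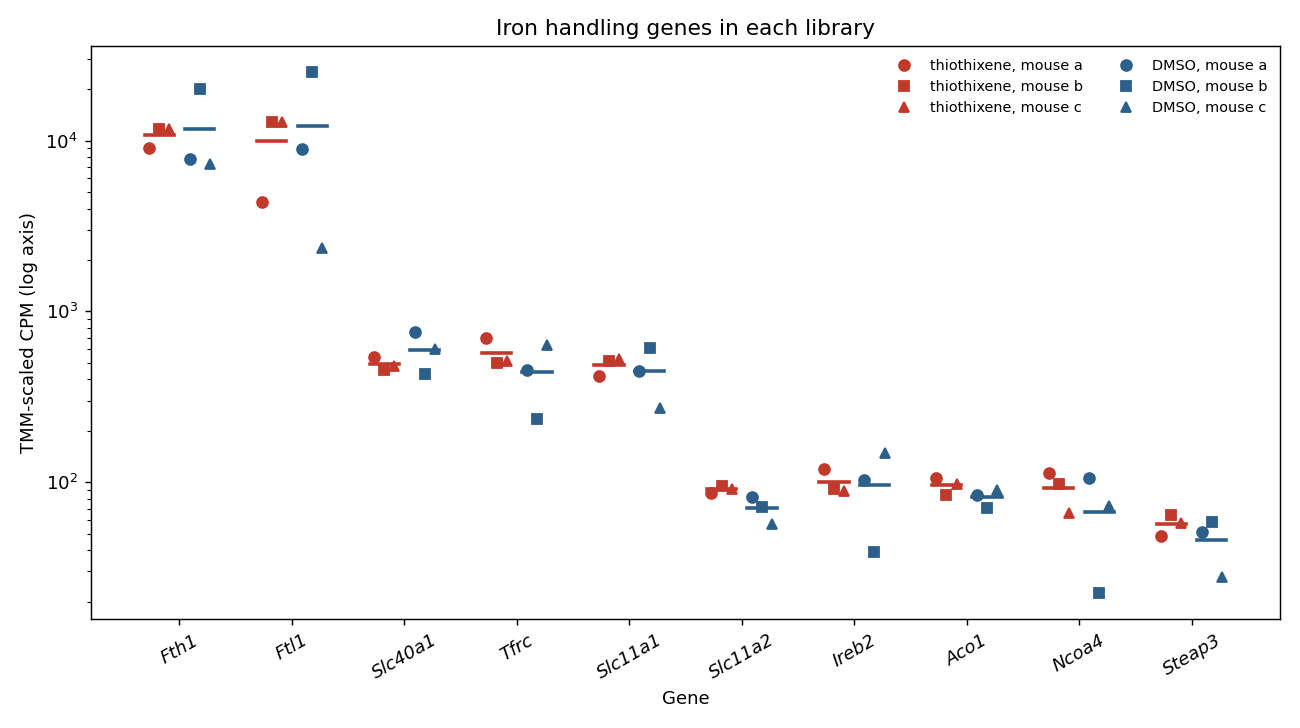
Level of each iron handling gene in each library, as TMM-scaled CPM on a log axis. Points are libraries (shape, mouse; colour, treatment) and bars are group means (n = 3). The DMSO library of mouse b is the highest for Fth1 and Ftl1 and the lowest for Tfrc, Ireb2 and Ncoa4.

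Ferritin transcripts were by far the most abundant of the 10. Fth1 (ENSMUSG00000024661.8, chromosome 19, 9980598 to 9985098, plus strand of GRCm38) encodes the heavy subunit, which oxidizes iron as it enters the shell. Under thiothixene it measured 9052, 11668 and 11736 CPM for mice a, b and c, the order kept below, and under DMSO 7837, 20004 and 7307 CPM. All 3 thiothixene libraries fell between the DMSO libraries of mice a and b. Means were 10819 ± 1530 and 11716 ± 7182 CPM (SD, n = 3), and the log2 fold change was -0.11 (SE 0.42, 95% interval -1.08 to 0.85).

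Ftl1 (ENSMUSG00000050708.17, chromosome 7, 45457944 to 45459884, minus strand) encodes the light subunit, which favours mineral formation inside the shell. Its levels were 4357, 12773 and 12827 CPM with thiothixene and 8967, 25234 and 2340 CPM with DMSO. Mouse a under thiothixene and mouse c under DMSO were the low libraries, and these are the 2 with the most unaligned reads. The part of read quality in this was not tested. The highest library was 10.8 times the lowest, a spread wider than that of 91.4% of tested genes. Its fitted log2 fold change was -0.29 (SE 0.76, 95% interval -2.04 to 1.46). Within mice, the log2 difference of thiothixene against DMSO was -1.04, -0.98 and 2.45 for mice a, b and c, so the mice pointed both ways. The sign of both ferritin genes depended on the fit: with the mouse as a block Fth1 was at 0.042 and Ftl1 at 0.022, and without DMSO of mouse b they were at 0.52 and 0.82, none of them called.

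Together both ferritin genes made up 2.11 ± 0.620% of gene counts under thiothixene and 2.22 ± 1.48% under DMSO (SD, n = 3). The ratio of Fth1 to Ftl1 counts, which does not depend on library scaling, was 2.08, 0.913 and 0.915 with thiothixene and 0.874, 0.793 and 3.12 with DMSO. It was near 1 in 4 libraries and above 2 in the same 2 libraries as before, a library of each treatment. Group means were 1.30 ± 0.672 and 1.60 ± 1.32, a difference smaller than the spread. Near-identical copies can take ferritin reads. Ftl1-ps1 held 127 to 774 counts, 2.14 to 2.98 for every 1000 counts of Ftl1, and sharing of reads with copies was not measured beyond this.

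Ncoa4 (ENSMUSG00000056234.16, chromosome 14, 32159865 to 32179855, plus strand) encodes the receptor that carries ferritin to the lysosome to free its iron. It measured 113, 97.7 and 66.4 CPM with thiothixene and 106, 22.6 and 72.0 CPM with DMSO. The DMSO library of mouse b stood far below the other 5. The log2 fold change of 0.46 (SE 0.52, 95% interval -0.73 to 1.65) was the highest of the 10. Within mice the differences were 0.09, 2.11 and -0.12, large in mouse b and near 0 in the others. It was 0.047 without DMSO of mouse b, 0.97 without DMSO of mouse a and -0.18 with DMSO represented by mouse a alone.

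Tfrc (ENSMUSG00000022797.17, chromosome 16, 32608920 to 32632794, plus strand), the transferrin receptor, measured 698, 501 and 511 CPM with thiothixene and 451, 233 and 638 CPM with DMSO. Tfrc was higher under thiothixene in mice a and b and lower in mouse c. Its log2 fold change was 0.37 (SE 0.39, 95% interval -0.53 to 1.27). With offsets that remove each library's trend with GC content and transcript length it was 0.39 with a narrower 95% interval of -0.01 to 0.78. The unadjusted p in that edgeR fit was 0.0532 and the adjusted p 0.978. With the mouse as a block beside the offsets it was 0.39 with a 95% interval of -0.15 to 0.93. Leaving out single libraries moved the value from 0.064, without DMSO of mouse b, to 0.74, without DMSO of mouse c.

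Steap3 (ENSMUSG00000026389.17, chromosome 1, 120190757 to 120272705, minus strand) encodes the endosomal reductase that prepares transferrin iron for transport. Its levels were 48.4, 63.8 and 57.3 CPM with thiothixene and 50.8, 58.4 and 27.9 CPM with DMSO. The DMSO library of mouse c was low and the other 5 lay close together. It had a log2 fold change of 0.31 (SE 0.34), and one of 0.052 without DMSO of mouse c.

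Slc40a1 (ENSMUSG00000025993.11, chromosome 1, 45908068 to 45926523, minus strand) encodes ferroportin, the iron exporter. It measured 538, 452 and 478 CPM with thiothixene and 757, 428 and 602 CPM with DMSO. The DMSO libraries of mice a and c lay above every thiothixene library, and that of mouse b lay below. The log2 fold change was -0.28 (SE 0.30, 95% interval -0.97 to 0.40). Every fit to all 6 libraries kept it below 0, at -0.25 with the mouse as a block. In limma-voom with library quality weights it was -0.62 (unadjusted p 0.0035, adjusted p 0.20). The weights there were 2.28 for DMSO of mouse a, the highest library for Slc40a1, and 0.21 and 0.23 for DMSO of mice b and c. Without DMSO of mouse a the log2 fold change was -0.064. The count ratio of Tfrc to Slc40a1, receptor to exporter, was 1.30, 1.11 and 1.07 with thiothixene and 0.596, 0.544 and 1.06 with DMSO. The groups did not overlap, but by a narrow margin in mouse c. This ratio was chosen after its values were seen and is 1 of 2 that did not overlap among the 45 pairs that 10 genes form, or 4.44%. The other was that of Slc40a1 to Aco1, at 4.91 to 5.37 with thiothixene and 6.05 to 9.03 with DMSO. The share over pairs of all tested genes is not given here, so neither ratio is set apart from other gene pairs.

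Slc11a1 (ENSMUSG00000026177.12, chromosome 1, 74375195 to 74386062, plus strand), or Nramp1, pumps metal ions out of phagosomes and is best known for resistance to intracellular microbes. It measured 417, 510 and 528 CPM with thiothixene and 449, 614 and 274 CPM with DMSO. The thiothixene libraries all fell inside the DMSO range. Its log2 fold change was 0.12 (SE 0.34, 95% interval -0.66 to 0.91), and -0.13 without DMSO of mouse c.

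Slc11a2 (ENSMUSG00000023030.17, chromosome 15, 100387898 to 100425072, minus strand), or DMT1, moves ferrous iron from the endosome into the cytosol. It measured 86.7, 95.1 and 90.9 CPM with thiothixene and 81.9, 71.8 and 56.7 CPM with DMSO. Every thiothixene library was above every DMSO library, from which it follows that thiothixene was the higher in 3 of 3 mice. The gap in mouse a was small, at 0.08 on the log2 scale. The log2 fold change was 0.37 (SE 0.27, 95% interval -0.24 to 0.99), the smallest unadjusted p of the 10 in edgeR at 0.2, rank 1413 of all tested genes. Transcripts of this gene with and without a 3′ iron-responsive element are known, and gene counts do not separate them.

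Aco1 (ENSMUSG00000028405.10, chromosome 4, 40143081 to 40198338, plus strand) encodes iron regulatory protein 1, which is a cytosolic aconitase when it holds an iron-sulfur cluster. It was the steadiest of the 10, with 106, 84.3 and 97.3 CPM with thiothixene and 83.9, 70.7 and 89.5 CPM with DMSO. Its highest library was 1.50 times the lowest, a spread narrower than that of all but 8.0% of tested genes. In 3 of 3 mice the thiothixene library was above the DMSO one, by 0.34, 0.25 and 0.12 on the log2 scale. The share of all tested genes that went the same way in all 3 mice is not given here. The fitted log2 fold change was 0.24 (SE 0.26, 95% interval -0.37 to 0.84).

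Ireb2 (ENSMUSG00000032293.9, chromosome 9, 54863789 to 54912530, plus strand) encodes iron regulatory protein 2, which is degraded when iron is plentiful. Its levels were 120, 91.1 and 89.0 CPM with thiothixene and 103, 38.8 and 149 CPM with DMSO. The DMSO group held both the highest and the lowest library, of mice c and b. Ireb2 had a log2 fold change of 0.05 (SE 0.46, 95% interval -1.01 to 1.10), and one of -0.33 without DMSO of mouse b.

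**Figure D2:**
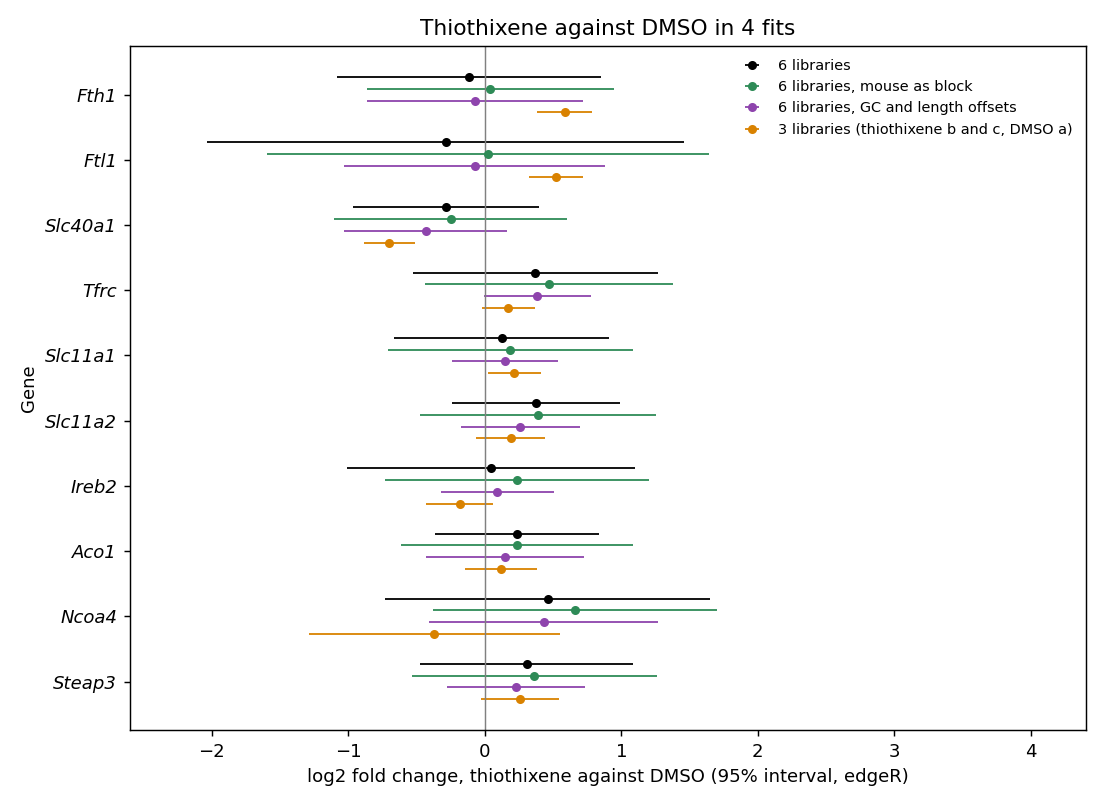
Log2 fold change of each gene, thiothixene against DMSO, with 95% intervals from 4 edgeR fits. In the 3 fits to 6 libraries every interval includes 0. The fit to 3 libraries, those most alike in these data, gives narrow intervals that leave 0 for Fth1, Ftl1, Slc40a1 and Slc11a1. Part of that narrowness is built in by the choice of libraries.

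Levels were compared between genes per kilobase of the principal transcript. Fth1 and Ftl1 averaged 12128 and 11449 CPM per kb over the 6 libraries and did not differ beyond their spread. Next came Slc11a1 at 201, Slc40a1 at 161 and Tfrc at 103 CPM per kb. With thiothixene Slc11a1 stood above Slc40a1 (210 ± 25.7 against 145 ± 13.1 CPM per kb, SD, n = 3), while with DMSO their spreads overlapped (192 ± 73.6 against 177 ± 49.0). The other 5 were lower, from 26.6 for Slc11a2 through 23.8 for Ncoa4, 23.1 for Aco1 and 17.4 for Steap3 to 17.1 CPM per kb for Ireb2. Neighbours among these 5 did not differ beyond their spread in the DMSO libraries. With thiothixene Aco1 stood above Steap3 (25.0 ± 2.85 against 19.3 ± 2.64 CPM per kb, SD, n = 3), and the spreads of the other neighbours overlapped.

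Within the 10 genes, the spread between libraries went with base composition. The DMSO library of mouse c held the lowest level of 5 genes and that of mouse b the lowest of the other 5, while no thiothixene library was the lowest for any. In the DMSO library of mouse c, Ftl1 (58.1% GC in its longest transcript) deviated from its mean over libraries by -1.86 on the log2 scale, and Ireb2 (39.0% GC) by 0.71. The DMSO library of mouse b was the reverse, with Ftl1 at 1.57 and Ireb2 at -1.23. Spearman's rho between GC content and deviation over the 10 genes was -0.70, 0.56 and 0.87 for mice a, b and c under thiothixene and -0.19, 0.79 and -0.90 under DMSO. These are descriptions over genes that share each library. Over 14565 tested genes the same rho was -0.52, 0.37 and 0.43 under thiothixene and 0.18, 0.45 and -0.62 under DMSO. Both treatments held libraries of either sign, and the sign over the 10 genes was that over all tested genes in 5 of 6 libraries.

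**Figure D3:**
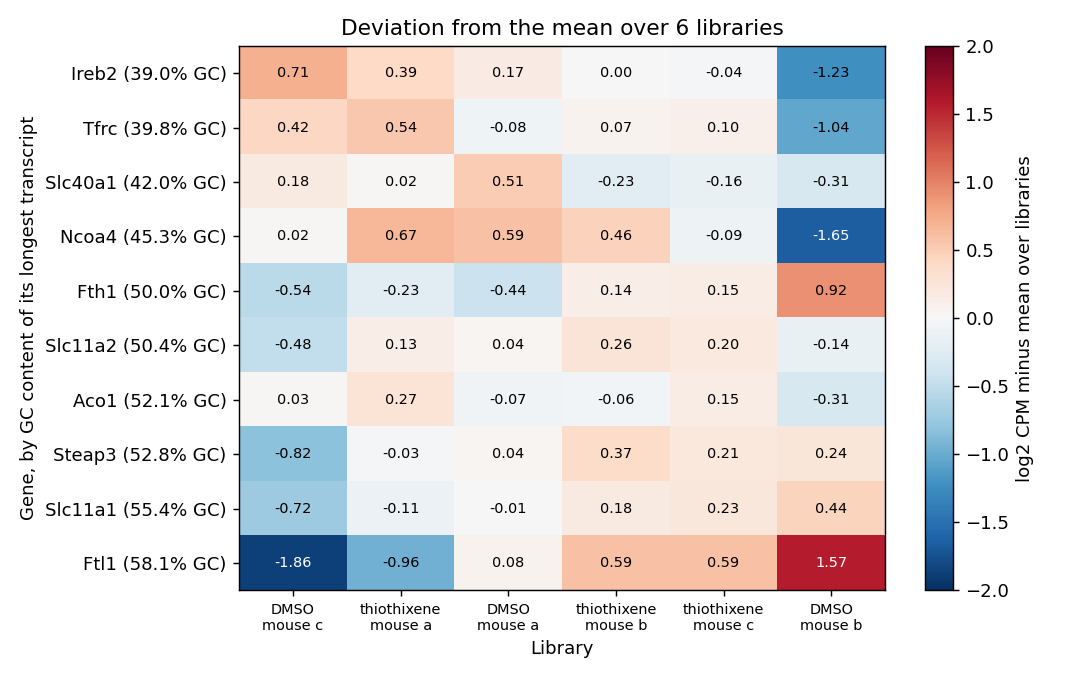
Deviation of each gene from its mean over 6 libraries, in log2 CPM (colour and number), with genes ordered by the GC content of the longest transcript. The libraries at both ends, DMSO of mice c and b, run from red to blue and from blue to red down the page.

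Offsets for GC content and length narrowed the range over libraries for 8 of the 10 genes. They were fitted to the deviations of the tested genes in these same libraries, so some narrowing is built in. The share of all tested genes that narrowed is not given here, only the median range. For Ireb2 it went from 1.94 to 0.42 on the log2 scale, for Slc11a1 from 1.17 to 0.33, for Tfrc from 1.58 to 0.56 and for Ftl1 from 3.43 to 1.62. The median over the 10 went from 1.32 to 0.79, and that over all tested genes from 1.46 to 1.11. Slc40a1 and Aco1 did not narrow (0.82 to 0.90 and 0.58 to 0.83). After the offsets the groups did not overlap for 3 of the 10, Tfrc, Slc11a1 and Slc11a2, and for 10.8% of all tested genes, a count added after seeing the data. The margin was slight for Slc11a1, with its lowest thiothixene deviation at -0.0024 and its highest DMSO one at -0.011. For Slc11a2 these were 0.10 and 0.065, and for Tfrc 0.18 and -0.11. Of the 10 genes 0 passed, with the lowest adjusted p in edgeR at 0.978. Fold changes stayed small, at -0.07 (SE 0.34) for Fth1, -0.07 (SE 0.42) for Ftl1 and -0.43 (SE 0.26) for Slc40a1.

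Without the 3 libraries that stand apart (thiothixene of mouse a, DMSO of mice b and c), 3 of the 10 passed, where 6.99% of all tested genes did. Fth1 was at 0.58 (SE 0.10), Ftl1 at 0.52 (SE 0.10) and Slc40a1 at -0.70 (SE 0.09) on the log2 scale. Adjusted p-values in edgeR were 3.61e-04, 0.00119 and 2.27e-05. That fit sets thiothixene libraries of mice b and c against a lone DMSO library of mouse a, so treatment and mouse cannot be told apart. Its spread comes from the 2 thiothixene libraries alone, and the lone DMSO library is assumed to vary like them. The libraries left out were picked from these same data as those that stand apart. Small standard errors and p-values are therefore partly built in, and no conclusion is drawn from them. For both ferritin genes the sign was opposite to that in the edgeR fit to 6 libraries with treatment as the only term. It was the same as with 6 libraries and the mouse as a block. Over the pair of libraries of mouse a, whose thiothixene library that fit leaves out, the log2 differences were 0.21 for Fth1, -1.04 for Ftl1 and -0.49 for Slc40a1.

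Of 31 other genes of iron transport and sensing 18 were tested and 0 passed in edgeR (0 of 21 for haem genes, 0 of 22 for iron-sulfur cluster assembly). At an unadjusted p under 0.05 in edgeR there were 2, 2 and 0, a level that 1.72% of all tested genes reached. The groups did not overlap for 3, 3 and 1 genes of these lists, and for 6.65% of all tested genes. Of the 18, 7 were above 0, with a median log2 fold change of -0.08. Steap4, Hephl1, Cybrd1, Hamp2, Hjv and Ftmt had 0 counts in every library. Epas1, the oxygen-sensed factor HIF-2α, measured 11.8, 10.8 and 9.81 CPM with thiothixene and 5.40, 2.68 and 5.50 CPM with DMSO, without overlap. Its log2 fold change was 1.24 (SE 0.41), with an unadjusted p of 0.0151 and an adjusted p of 0.9998 in edgeR. Hfe, a partner of the transferrin receptor in iron sensing, measured 49.5, 46.8 and 37.6 CPM with thiothixene and 92.4, 98.8 and 60.4 CPM with DMSO, also without overlap (log2 fold change -0.91, SE 0.30, adjusted p 0.9998 in edgeR). The most abundant of the list, the iron chaperone gene Pcbp2 and the transferrin gene Trf, were at -0.16 (SE 0.26) and -0.37 (SE 0.31).

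Genes of haem synthesis, transport and breakdown were above 0 for 7 of 21, with a median of -0.28. Most of those below 0 were highest in the DMSO library of mouse b, though some, Cd163 among them, were not. What part that library had in the median was not tested. Macrophage markers were above 0 for 1 of 8 tested (median -0.38) and neutrophil markers for 0 of 9 (median -0.49), and their part in the haem list was not tested. Csf1r, the receptor that macrophages need to survive, was lower in every thiothixene library than in any DMSO library, at -0.46 (SE 0.28), and the Fc receptor gene Fcgr1 was at -0.86 (SE 0.34, unadjusted p 0.0349 and adjusted p 0.9998 in edgeR). Cd163, the receptor for haemoglobin bound to haptoglobin, measured 20.1, 11.7 and 11.1 CPM with thiothixene and 55.0, 17.2 and 45.3 CPM with DMSO. The DMSO library of mouse b fell among the thiothixene libraries. Thiothixene was the lower library in each mouse, which is given without its share over all tested genes. Its log2 fold change was -1.45 (SE 0.48, adjusted p 0.9998 in edgeR), and limma-voom with library quality weights called it at -2.08 (adjusted p 0.0277). The weights were 0.54, 6.23 and 2.75 for thiothixene of mice a, b and c, and 2.28, 0.21 and 0.23 for DMSO. The weighted fit thus leaned on DMSO of mouse a and thiothixene of mice b and c, so treatment and mouse are hard to tell apart in it. Spic, the factor of iron-recycling macrophages, measured 5.03, 4.78 and 5.72 CPM against 9.47, 10.3 and 9.13 CPM. Both groups were tight, at a low level, with a log2 fold change of -0.89 (SE 0.35) and an adjusted p of 0.9998 in edgeR. Hmox1, which breaks haem down and frees its iron, measured 1269 ± 393 against 1150 ± 322 CPM (SD, n = 3; 0.14, SE 0.34). Lrp1, which takes up haem bound to hemopexin, was at 0.32 (SE 0.37).

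Iron-sulfur cluster assembly genes were above 0 for 6 of 22, with a median of -0.12. Hscb, a co-chaperone of cluster transfer, and Glrx5, a glutaredoxin of the same step, were at -0.65 (SE 0.40) and -0.69 (SE 0.60). Both were highest in the DMSO library of mouse b, at 32.3 and 95.5 CPM, as were most genes of this list below 0. The abundant Hspa9, the mitochondrial chaperone, and Mms19, of the cytosolic pathway, were at 0.04 (SE 0.27) and -0.15 (SE 0.27). The listed genes Abcb6 and Fdx2 had 0 counts in every library. As these were bulk cultures, fewer cells of a type and less RNA per cell cannot be told apart for any gene above.

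**Figure D4:**
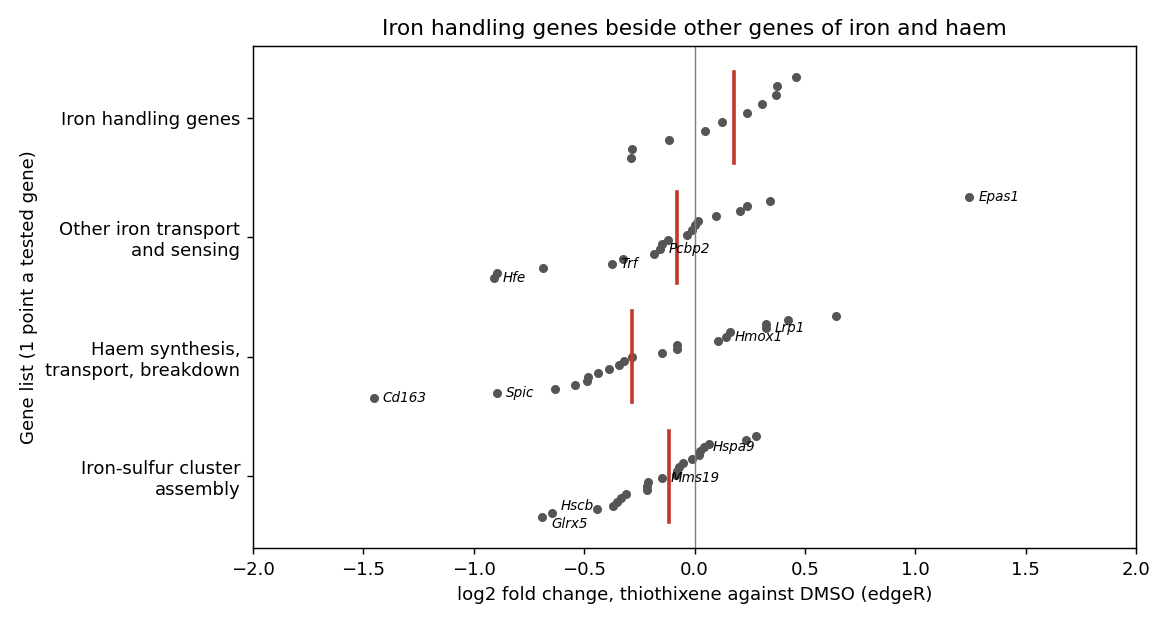
Log2 fold change of every tested gene in 4 lists, thiothixene against DMSO, from edgeR with 6 libraries. Points are genes and the red bar is the list's median: 0.18 for the iron handling genes, -0.08, -0.28 and -0.12 for the lists below, none of whose genes passed.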

How the data were processed

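For each library the authors deposited raw counts per gene. The submitters' processing notes list mm10, STAR 2.7.11b, Trim Galore 0.6.10, FastQC 0.11.8 and DESeq2 1.44, with no roles. How reads were counted, with or without strand, and on which annotation release is not given in the sources used here. Each file has 5 rows that name no gene. Reads assigned to no counted feature were 43.065% to 44.349% of all rows' counts and reads not aligned 1.85% to 4.978%. Neither kind entered library sizes or tests. Symbols, positions and lengths came from GENCODE M21 (GRCm38) by identifier without version: 52073 matched and 4618, with 0.4% of counts, did not. Listed symbols that the release names otherwise (4) were found through RefSeq synonyms.

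The test was edgeR's robust quasi-likelihood fit (version 4.0.16, R 4.3.3) after TMM scaling and its expression filter, with treatment as the only term and Benjamini-Hochberg adjustment over all 14856 tested genes. A standard error is the size of the log2 fold change over the square root of F. Alternatives were the mouse as block, RLE, other filters, DESeq2 1.42.0, limma-voom 3.58.1 with and without library quality weights, spline offsets for GC content and length (5 degrees of freedom each), and fits without libraries. Deviations are log2 CPM with a prior count of 2. Mouse letters pair the libraries, since both come from the same animal. Their deviations from the group means correlated at -0.131, 0.318 and -0.301 for mice a, b and c.

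The members and lists were chosen with earlier results of these data known. All 10 members are named. Of each other list of iron and haem genes, the 2 tested genes of smallest p and the 2 of highest mean CPM are named. A planned comparison of protein sequences was not made.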

Additional observations from a re-analysis of the deposited data

How the results depend on the processing

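Over all genes edgeR called 0, as it did with the replicate block (mouse), with RLE size factors, with the stricter filter, with GC and length offsets with or without the block, and without any single library. The count was 1 with no low-count filter, 2 in DESeq2, 25 with library quality weights and 1105 without the 3 libraries that stand apart. Of the 10 iron handling genes 3 were called in that last fit and 0 in the other 16 alternatives. The number above 0, 7, ranged from 6 to 9 and was 9 with the replicate block. Genes whose groups did not overlap, 1 with 6 libraries, numbered 1 to 3 when a library was left out: 2 without thiothixene of mouse b (9.15% of all tested genes), 3 without DMSO of mouse b (17%) and 3 without that of mouse c (21.6%). Those fits held fewer libraries; beyond that, the cause was not tested. The difference in ferritin share, thiothixene minus DMSO, was -0.106 percentage points and ran from -0.707 to 0.72 without single libraries, and that in the Fth1 to Ftl1 ratio was -0.295 and ran from -0.696 to 0.469. Adding copies moved neither.

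Aco1, Slc11a2, Steap3, Tfrc and Slc40a1 kept their sign in all 17 alternatives, but not their size: without single libraries they ran from 0.14 (DMSO of mouse b) to 0.33, 0.24 (DMSO of mouse c) to 0.51, 0.052 (DMSO of mouse c) to 0.52 (DMSO of mouse b), 0.064 (DMSO of mouse b) to 0.74 (DMSO of mouse c) and -0.47 (DMSO of mouse b) to -0.064 (DMSO of mouse a). Ncoa4 ran from 0.047 (DMSO of mouse b) to 0.97 (DMSO of mouse a). Of 170 comparisons over the 10 genes 25 changed sign. With the replicate block Fth1 was 0.042 and Ftl1 0.022 (0.040 and 0.032 with the offsets as well), with limma-voom 0.051 and 0.17, and with quality weights 0.47 and 0.48, where Ireb2 was -0.11, Ncoa4 -0.075 and Glrx5 0.17. Without thiothixene of mouse a Fth1 was 0.0031, Ftl1 0.075 and Ireb2 -0.097. Without thiothixene of mouse c Hmox1 was -0.070. Without DMSO of mouse a Hspa9 was -0.078. Without DMSO of mouse b Fth1 was 0.52, Ftl1 0.82, Ireb2 -0.33 and Glrx5 0.28, and without that of mouse c Slc11a1 was -0.13. Without both DMSO libraries Fth1 was 0.49, Ftl1 0.18, Ireb2 -0.015, Ncoa4 -0.18, Pcbp2 0.038, Lrp1 -0.22 and Glrx5 0.11. Without the 3 libraries that stand apart Fth1 was 0.58, Ftl1 0.52, Ireb2 -0.18, Ncoa4 -0.37, Lrp1 -0.12 and Glrx5 0.38. In that fit Slc40a1 was at -0.70, Trf at -0.58, Hfe at -1.13, Cd163 at -2.26, Hmox1 at 0.67 and Hspa9 at 0.34. The replicate block changed no call. Over the fits without a single library the values ran from -0.36 to 0.52 for Fth1, -0.77 to 0.82 for Ftl1, -0.13 to 0.43 for Slc11a1, -0.33 to 0.50 for Ireb2, -0.070 to 0.40 for Hmox1, -1.04 to 0.28 for Glrx5 and -0.078 to 0.19 for Hspa9.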
